A study of Homo sapiens with 56 samples.

Results

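The response to 2-methylisocitrate (2-MiCit) was compared between HCT116 and DLD1, a pair of established human colorectal cancer lines, by asking gene by gene whether the change in one line differed from the change in the other. The comparison used 16 of the 56 libraries of the series, 4 in each of 4 groups: HCT116 control, HCT116 2-MiCit, DLD1 control and DLD1 2-MiCit. Treated cells received 10 mM 2-MiCit and control cells received water, the vehicle. The labels describe both lines as epithelial cells of colon with a wild-type genotype, and how long the cells were treated could not be taken from them. Of the 16485 genes in the deposited table, 14880 had enough counts to be tested. The libraries of a group are numbered 1 to 4. Whether each is a culture of its own is not stated, and the p-values therefore reflect library-to-library spread alone, part or all of which may be technical.

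2-MiCit is an intermediate of the methylcitrate cycle, by which bacteria break down propionate, and the study's title places it among metabolites of the cancer-associated microbiota. Several of the genes below belong to the integrated stress response, in which a shortage of amino acids or another stress leads to translation of the transcription factor ATF4, and ATF4 and its partners raise genes for amino acid uptake, amino acid synthesis and stress adaptation. Others are targets of p53, the transcription factor that halts the cell cycle after damage. As background, HCT116 is a line with functional p53 and DLD1 carries a mutant p53. The lines differ in many other ways, and which of these goes with a difference in response was not tested.

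The 8 HCT116 libraries held 14.9 to 19.4 M counts each and the 8 DLD1 libraries 14.2 to 16.6 M. The library DLD1 control 1 stood apart. Its genes lay 0.563 (SD, log2 scale) from their group mean against 0.321 to 0.393 in the other 7 DLD1 libraries, and its long transcripts were low, with a slope of -0.19 log2 units per doubling of transcript length. Many results are therefore given with and without it, though not every count. Epithelial markers were high in both lines: the 7 tested markers summed to between 4670 and 5190 CPM (counts per 1e6 counts, here of the library total) in HCT116 control libraries and 11300 to 13600 in DLD1 control libraries. Of the markers of colonic identity, CDX1 was at 0 in every library, and CDX2 averaged 16.5 CPM in HCT116 controls and 181 in DLD1 controls. Neural markers, 4 in the table, summed to 4.83 to 6.71 CPM in HCT116 controls and 7.94 to 9.75 with 2-MiCit. In these groups MAP2 averaged 2.75 and 6.18 CPM and SYP 2.34 and 2.17. The part of the neural markers in any result was not tested. In such bulk samples fewer cells of a type and less RNA per cell cannot be told apart.

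Calls were made with edgeR's quasi-likelihood test where the Benjamini-Hochberg adjusted p was under 0.05, with both lines in a single fit that gives the HCT116 change, the DLD1 change and their difference (the interaction). HCT116 changed in far more genes than DLD1. In HCT116 2134 genes were higher with 2-MiCit (14.3% of those tested) and 1513 were lower (10.2%). In DLD1 374 were higher (2.51%) and 232 were lower (1.56%). The change differed between the lines at 929 genes (6.24%), of which 617 (66.4%) moved in the more positive direction in HCT116. Without DLD1 control 1 the interaction was called at 1544 of 15008 genes, 897 of the 929 among them, and 816 of the 1544 (52.8%) were more positive in HCT116. With each library's trend on transcript length removed, the split was 688 against 687.

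The number of genes called in DLD1 varied with the fit. The biological coefficient of variation was 0.122 in HCT116 alone and 0.183 in DLD1 alone, falling to 0.12 in DLD1 without control 1, and the joint fit used 0.16. In a fit of its own 8 libraries, DLD1 had 20 genes called higher and 0 lower by edgeR, beside 1171 lower genes at an unadjusted p below 0.05. In the 16 libraries together DESeq2 called 1067 lower in DLD1 and voom 541. Without control 1 the DLD1 libraries alone gave 163 higher and 20 lower. HCT116 alone gave 2635 and 2489.

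The 2 responses can be sorted into 3 classes. Shared genes are those called in both lines in the same direction, and there were 334 (206 higher and 128 lower), 55.1% of the genes called in DLD1 and 9.16% of those called in HCT116. Genes with a larger response in HCT116 have the interaction and the HCT116 change called and the greater absolute change there; 808 met this, 550 higher and 258 lower. Genes with a larger response in DLD1 are defined the same way with the lines exchanged; 58 met this, 38 higher and 20 lower. The remaining 63 genes with a called interaction fell in neither of the last 2 classes, and 37 shared genes also belonged to one of them (30 to HCT116 and 7 to DLD1). For 257 of the 334 shared genes (76.9%) the 95% interval of the difference between the lines lay inside 1.5-fold, against 42.9% of all genes tested. The 2 shares are not a like comparison. Shared genes had to be called in both lines, which favours narrow intervals, and all genes tested include 1797 under 1 CPM in both DLD1 groups. For the other shared genes a difference beyond 1.5-fold is within that interval. Without DLD1 control 1 the classes held 310, 1375 and 78 genes, of which 230, 782 and 44 were in the same class as before. When each line was called in its own fit, 19 genes were shared. Leaving out 1 library moved the shared count between 83 (without DLD1 2-MiCit 1) and 611 (without DLD1 control 3).

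**Figure D1:**
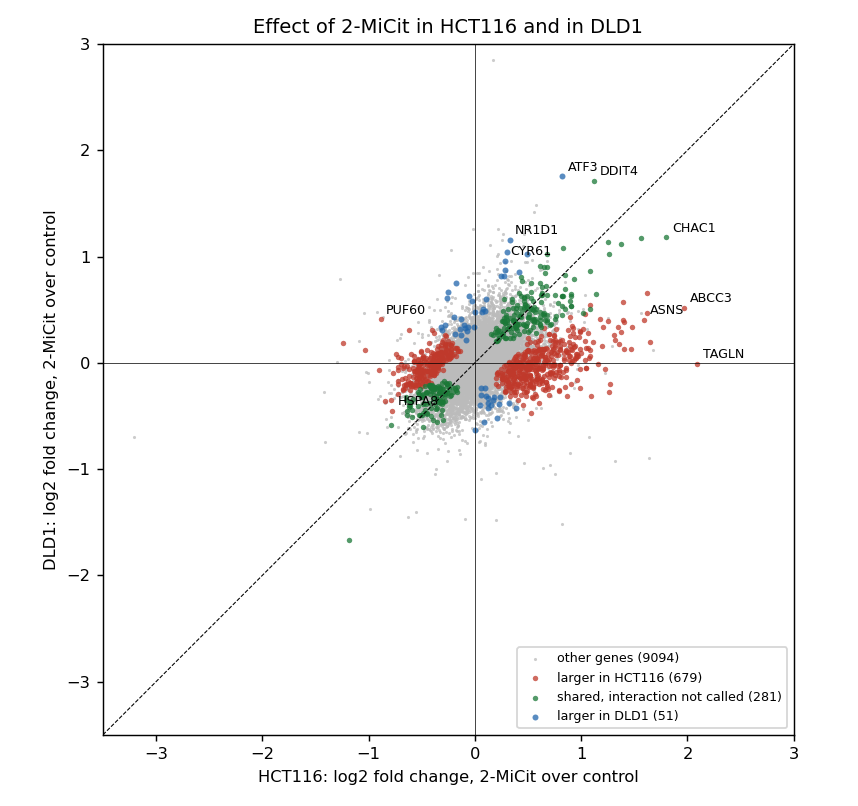
Each point is a gene with a mean of at least 5 CPM in both lines (10105 genes), with its log2 fold change in HCT116 on the horizontal axis and in DLD1 on the vertical axis, and the dashed line marks equal change. The 679 red genes larger in HCT116 lie along the horizontal axis on both sides, the 281 green shared genes follow the diagonal, and the 51 blue genes larger in DLD1 lie near the vertical axis.

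Stress effectors downstream of ATF4 rose in both lines, and which of them rose more depended on the gene. Of 17 such genes tested, 12 rose in HCT116 and 10 in DLD1, with 9 shared (14 in DLD1 and 12 shared without DLD1 control 1), and their median log2 change was 0.48 in both lines against 0.05 and 0.00 over all genes tested. The interaction was called at 6, with 3 larger in HCT116 and 3 larger in DLD1. Over all genes tested 14.3% rose in HCT116, 2.51% rose in DLD1 and 6.24% had the interaction called.

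CHAC1, which encodes an enzyme that degrades glutathione, was the shared gene with the greatest increase by the smaller of its 2 changes. It stood at 5.73, 5.61, 4.62 and 3.85 CPM in HCT116 controls and 18.5, 17.4, 17.9 and 15.5 with 2-MiCit. In DLD1 it went from 19.2, 15.8, 13.1 and 10.4 CPM to 35.4, 34.4, 36.8 and 26.1. The groups did not overlap in either line, which was a condition for naming a shared gene. Genes named as larger in 1 line likewise had to be apart in that line. Over all 14880 genes tested, 438 were apart and higher in both lines and 406 apart and lower in both. DLD1 controls overlapped the CHAC1 levels of treated HCT116. The increase was 3.49-fold in HCT116 and 2.27-fold in DLD1, and the difference of 0.62 log2 units (SE 0.24) was not called (adjusted p = 0.15). DDIT4, which restrains the growth kinase mTORC1, rose from 43.3, 38, 36.3 and 31.1 CPM to 84.4, 79.6, 87.8 and 71.8 in HCT116. In DLD1 its controls were at 53.9, 30.4, 30.6 and 24.3 CPM and its treated libraries at 129, 109, 132 and 85.2. Every treated library was above every control library of its line, and DLD1 control 1 was the highest of the DLD1 controls. With that library the difference was -0.59 log2 units (adjusted p = 0.25), and without it -0.90 (adjusted p = 0.012), a larger rise in DLD1.

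ATF3, a stress-induced transcription factor, was both shared and larger in DLD1. Its HCT116 controls stood at 21.9, 21.7, 20.1 and 21 CPM and its treated libraries at 38.1, 38.6, 37.6 and 35.4. In DLD1 the controls were at 17.8, 21.4, 19.9 and 19.6 CPM and the treated libraries at 73.7, 66.6, 68.4 and 57.8. The controls of both lines lay at nearly one level, and all 4 treated DLD1 libraries were above all 4 treated HCT116 libraries. The rise was 1.77-fold in HCT116 and 3.38-fold in DLD1, and the difference was -0.94 log2 units (SE 0.11, adjusted p = 0.00022; -0.91 without DLD1 control 1). PPP1R15A, the phosphatase subunit that ends the integrated stress response, rose 1.21-fold in HCT116 and 1.83-fold in DLD1 (difference -0.59, adjusted p = 0.0046). VEGFA, a growth factor for blood vessels, rose 1.33-fold and 1.81-fold (difference -0.44, adjusted p = 0.014). In the other direction ATF5, a transcription factor related to ATF4, rose in HCT116 (log2 change 0.42) and had a log2 change of -0.14 in DLD1 (adjusted p = 0.25), with a difference of 0.57 (adjusted p = 0.0075).

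Enzymes of amino acid synthesis under ATF4 responded more in HCT116. Of 13 tested, 8 rose and 2 fell in HCT116 and 3 rose in DLD1 (2 without DLD1 control 1). The 5 with a called interaction were all larger in HCT116, as were 808 of the 929 called over all genes tested (87%). Of all genes tested 14.3% rose and 10.2% fell in HCT116 and 2.51% rose in DLD1. The median log2 change was 0.36 in HCT116 and 0.14 in DLD1. ASNS, asparagine synthetase, stood at 124, 128, 123 and 116 CPM in HCT116 controls and 366, 368, 386 and 359 with 2-MiCit. In DLD1 it was at 194, 203, 195 and 167 CPM in controls and 252, 254, 278 and 222 when treated. The groups were apart in both lines, but the treated HCT116 libraries lay furthest from their controls. The rise was 3.02-fold against 1.32-fold, a difference of 1.19 log2 units (SE 0.10, adjusted p = 3.2e-05). PSAT1 and PHGDH, enzymes of serine synthesis, differed by 0.91 and 0.93 log2 units (adjusted p = 8.8e-05 and 0.00025): PSAT1 rose 2.16-fold and PHGDH 2.09-fold in HCT116, and their DLD1 changes of 1.15-fold and 1.1-fold were not called. ALDH1L2, a mitochondrial enzyme of folate metabolism, rose by 1.63 log2 units in HCT116 from a mean of 0.855 CPM and stood at 0.321 and 0.238 CPM in DLD1.

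Amino acid transporters were divided. Of 12 tested, 7 rose and 1 fell in HCT116 and 4 rose in DLD1, all 4 of them shared. The shares over all genes tested were 14.3%, 10.2% and 2.51%, with 2.24% shared. SLC7A11, the cystine importer, stood at 48.7, 61.2, 53.5 and 66.8 CPM in HCT116 controls and 103, 136, 104 and 146 with 2-MiCit. Its DLD1 level was 27.9, 41.3, 44 and 36.1 CPM in controls and 71.6, 77.8, 60.1 and 62.5 with 2-MiCit. Treated libraries lay above controls in both lines, 2.12-fold and 1.82-fold on average, and the 95% interval of the difference ran from -0.23 to 0.68 log2 units. SLC6A9, a glycine transporter, rose 2.59-fold and 2.18-fold. SLC1A4, a carrier of serine and alanine, rose 3.07-fold in HCT116 and 1.57-fold in DLD1 (difference 0.96, adjusted p = 0.0023), whereas SLC38A2, a glutamine and alanine carrier, rose 1.41-fold and 2.03-fold (difference -0.53, adjusted p = 0.037, a call lost in 11 of the 16 fits that left out 1 library).

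The promoters of these genes were searched for TGATGNAA, the core of the C/EBP-ATF response element that ATF4 binds with a C/EBP partner. The windows were RefSeq sequences of 300 bases (GRCh38.p14), 250 before and 50 after a gene's start, read on both strands and available for 10622 gene symbols tested. The motif lay in a window of 20 of 160 shared higher genes (12.5%), 17 of 408 higher genes larger in HCT116 (4.17%), 2 of 25 higher genes larger in DLD1 (8%) and 300 of all 10622 (2.82%). By windows rather than genes the shares were 7.55%, 2.75%, 5.41% and 2.05%. The sets overlap. Of the genes with the motif, AARS1, ASNS, CEBPG, JDP2 and SLC1A4 are both shared and larger in HCT116. ATF3 is both shared and larger in DLD1, where IFRD1 is the other match. Stretches of 250 bases before the start are shown because they carry the motif in the shared gene CHAC1, in ATF3, which rose more in DLD1, and in ASNS, which rose more in HCT116. ATF3 and ASNS each have 2 windows, and 1 of the 2 carries the motif and is shown. Capitals mark the match, which in CHAC1 is read on the other strand. ATF3 is at chr1:212565157-212565406 (plus strand), CHAC1 at chr15:40953221-40953470 (plus strand) and ASNS at chr7:97872409-97872658 (minus strand), and the match begins 191, 209 and 68 bases before the start.
ATF3: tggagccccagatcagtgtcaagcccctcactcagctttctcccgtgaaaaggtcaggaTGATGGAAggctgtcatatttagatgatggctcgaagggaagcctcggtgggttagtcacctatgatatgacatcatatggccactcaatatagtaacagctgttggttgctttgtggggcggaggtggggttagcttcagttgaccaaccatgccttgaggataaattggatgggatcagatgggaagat
CHAC1: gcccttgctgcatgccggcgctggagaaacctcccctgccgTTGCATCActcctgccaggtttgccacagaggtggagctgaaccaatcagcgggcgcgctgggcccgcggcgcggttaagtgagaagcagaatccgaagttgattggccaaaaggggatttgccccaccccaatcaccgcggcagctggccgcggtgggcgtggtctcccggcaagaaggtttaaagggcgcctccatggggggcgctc
ASNS: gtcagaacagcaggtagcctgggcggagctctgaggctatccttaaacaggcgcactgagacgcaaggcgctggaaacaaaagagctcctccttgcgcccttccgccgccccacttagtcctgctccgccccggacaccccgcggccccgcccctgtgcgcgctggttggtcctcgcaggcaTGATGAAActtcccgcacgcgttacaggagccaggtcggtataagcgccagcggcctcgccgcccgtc
A match describes these letters and is not evidence of binding, and both ASNS and ATF3 carry the motif although their responses differed in opposite directions between the lines. The windows of GDF15, DDIT4, PSAT1, PHGDH and SLC7A5 held no match, which says only that these letters are not in the window. TGANTCA, with any base at N, is a looser pattern that takes in the site of AP-1 factors. It lay in a window of 19 of 160 shared higher genes (11.9%), against 7.17% of all genes. TGACGTCA, the cAMP response element, lay in a window of 8 of 160 shared higher genes (5%), 5 of 408 higher and 12 of 204 lower genes larger in HCT116 (1.23% and 5.88%) and 3 of 25 higher genes larger in DLD1 (12%), against 3.63% of all genes. CACGTG, the E-box, lay in a window of 20 of 100 shared lower genes (20%) and 39 of 204 lower genes larger in HCT116 (19.1%), against 12.5% of all genes.

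Other shared increases included GDF15, a secreted stress hormone, which stood at 58.6, 51.4, 59.2 and 42.5 CPM in HCT116 controls and 164, 157, 182 and 121 with 2-MiCit. The DLD1 libraries were at 477, 270, 252 and 244 CPM in controls and 795, 660, 795 and 548 with 2-MiCit. Treated libraries were above controls in both lines, with DLD1 control 1 far above the other 3 controls. The difference was 0.39 log2 units with that library and 0.08 without it, called in neither case (adjusted p = 0.49 and 0.89). KLHL24, an adaptor of a ubiquitin ligase, rose 2.38-fold in HCT116 and 2.2-fold in DLD1, and CCNG2, a cyclin of growth-arrested cells, rose 1.77-fold and 2.11-fold. Both belong to a list of 31 FOXO and growth arrest genes, of which 18 rose in HCT116 and 8 rose and 1 fell in DLD1. Without DLD1 control 1, 9 of them rose and 0 fell in DLD1. The shares of all genes tested that rose were 14.3% in HCT116 and 2.51% in DLD1. Within that list TSC22D3, a glucocorticoid-induced leucine zipper protein, rose by 1.67 log2 units in HCT116 against 0.11 in DLD1 (difference 1.56, adjusted p = 0.00097), and ARRDC4, a regulator of glucose uptake, by 1.08 against 0.12 (difference 0.96, adjusted p = 0.0012). The remaining shared higher genes named by rule were KDM7A, a histone demethylase, and ULBP1, a ligand of a natural killer cell receptor, with changes of 0.79 to 0.93 log2 units in either line. KDM7A lost its DLD1 call in 8 of the 16 fits without 1 library.

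Shared decreases included chaperones and genes of replication. Of 18 cytosolic heat shock chaperones, 14 fell in HCT116 and 7 in DLD1, all 7 shared, with medians of -0.49 and -0.21 log2 units. Of all genes tested 10.2% fell in HCT116 and 1.56% in DLD1. HSPA8, the constitutive HSP70, was at 3017, 3219, 2962 and 3022 CPM in HCT116 controls and 1816, 1780, 1819 and 1719 with 2-MiCit. In DLD1 it went from 4011, 3805, 3465 and 3513 CPM to 2871, 2753, 2568 and 2624. Treated libraries were below controls in both lines. HSPA8 fell by 0.78 log2 units in HCT116 and by 0.45 in DLD1, and the difference of -0.32 (adjusted p = 0.037) lost its call in 13 of the 16 fits that left out 1 library. HSP90AB1, a constitutive HSP90, fell by 0.79 and 0.35 log2 units (difference -0.44, adjusted p = 0.0043), and its co-chaperones FKBP4 and STIP1 differed by -0.40 and -0.44. HSP90AA1, the inducible HSP90, fell by 0.48 and 0.47 log2 units, with an interval of the difference from -0.39 to 0.37, and without DLD1 control 1, which had the highest level of all 16 libraries, the difference was -0.21 (adjusted p = 0.24). Its DLD1 change, -0.30 without that library, lost its call in 13 of the 16 fits without 1 library. The interaction was called at 4 of the 18 chaperones, and at 7 without DLD1 control 1. Of 24 genes of endoplasmic reticulum chaperones and the unfolded protein response, 10 fell in HCT116 and 6 in DLD1, all 6 shared, and 1 rose in each line. The interaction was called at 1, DNAJB11, a co-chaperone of the lumen (-0.41, adjusted p = 0.0086), and at 5 without DLD1 control 1.

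Of 42 DNA replication genes, 29 fell in HCT116 and 7 in DLD1, all 7 shared, with medians of -0.31 and -0.16 log2 units. Of all genes tested 10.2% fell in HCT116 and 1.56% in DLD1. At an unadjusted p below 0.05, 36 replication genes were lower in HCT116 and 19 in DLD1. DESeq2 called 33 and 15 of them lower and voom 38 and 16. GINS2, a subunit of the replicative helicase, was at 114, 105, 107 and 99.9 CPM in HCT116 controls and 71.7, 70.4, 85.2 and 73.7 with 2-MiCit. In DLD1 it went from 102, 78.3, 68.8 and 76 CPM to 50.9, 57.7, 64.8 and 58.3. It fell 1.42-fold and 1.40-fold, and treated and control libraries did not overlap, as the rule for naming shared genes required. The interaction was called at 5 replication genes (10 without DLD1 control 1), among them RFC5, a clamp loader subunit (-0.36, adjusted p = 0.017), and MCM7, a helicase subunit (-0.22, adjusted p = 0.044, a call lost in 13 of the 16 fits that left out 1 library). FABP5, a fatty acid carrier, fell by 0.79 log2 units in HCT116 and 0.59 in DLD1, the largest shared decrease named. The others named were DUSP2, R3HCC1, GTF3C6, ANP32A, POLR3G and CUTC, with changes between -0.45 and -0.64 log2 units in either line. GTF3C6 lost its call in 12 of the 16 fits without 1 library in DLD1 and in 8 of them in HCT116, and its DLD1 change was -0.60 log2 units with DLD1 control 1 and -0.38 without it. FABP5, CUTC, R3HCC1, GINS2, ANP32A and DUSP2 lost the DLD1 call in 7, 5, 5, 4, 4 and 3 of those fits.

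**Figure D2:**
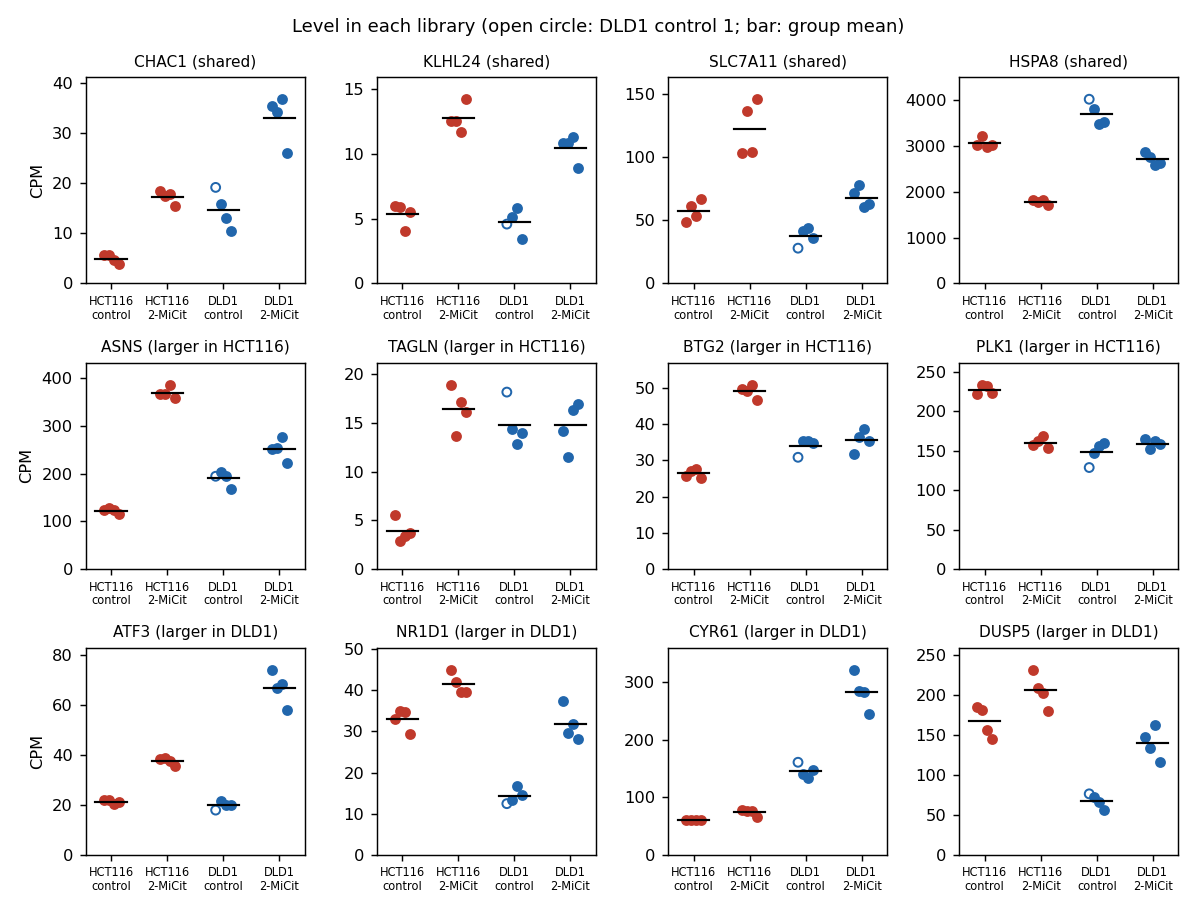
Each point is the CPM of 1 library for 12 genes (HCT116 red, DLD1 blue, 4 libraries a group), the bar is the group mean and the open circle is DLD1 control 1; every vertical axis starts at 0. CHAC1, KLHL24 and SLC7A11 rose and HSPA8 fell in both lines, ASNS, TAGLN, BTG2 and PLK1 changed more in HCT116, and ATF3, NR1D1, CYR61 and DUSP5 changed more in DLD1.

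Targets of p53 rose more in HCT116. Of 26 tested, 20 rose in HCT116 and 7 in DLD1, 6 of them shared, and the 9 with a called interaction were all larger in HCT116. Over all genes tested 14.3% rose in HCT116, 2.51% rose in DLD1 and 6.24% had the interaction called. Of those 929 called genes 808 (87%) were larger in HCT116, so that side is the usual one for any list. The median log2 change was 0.55 in HCT116 and 0.08 in DLD1 (0.12 without DLD1 control 1). BTG2, an antiproliferative regulator of mRNA decay, stood at 25.8, 27.1, 27.7 and 25.1 CPM in HCT116 controls and 49.8, 49.2, 50.9 and 46.6 with 2-MiCit. In DLD1 its controls were at 30.9, 35.5, 35.3 and 34.8 CPM and its treated libraries at 31.8, 36.4, 38.8 and 35.4. HCT116 groups were far apart and DLD1 groups overlapped. The difference was 0.83 log2 units (SE 0.10, adjusted p = 0.00026). TP53I3, a quinone oxidoreductase, went from 12.9, 10.4, 11.2 and 12.3 CPM to 22.2, 20.9, 22.7 and 22 in HCT116. In DLD1 it was at 24.7, 22, 18.7 and 17.3 CPM in controls and 15.8, 18.7, 19.6 and 17.7 with 2-MiCit. The DLD1 groups overlapped again, and the difference was 1.11 log2 units (adjusted p = 0.00074; 0.99 without DLD1 control 1). POLH, a polymerase that bypasses damaged bases, and CCNG1, a cyclin that feeds back on p53, differed by 0.64 and 0.65 log2 units (adjusted p = 0.002 and 0.0031).

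Genes of the contractile cytoskeleton and targets of TGF-beta and YAP rose more in HCT116. Of 25 tested, 17 rose and 1 fell in HCT116 and 4 rose in DLD1. The shares over all genes tested were 14.3%, 10.2% and 2.51%, and 6.24% for the interaction. The interaction was called at 10, with 8 higher genes and 1 lower gene larger in HCT116 and 1 higher gene larger in DLD1. The medians were 0.58 and 0.20 log2 units. TAGLN, which binds actin in smooth muscle cells, was at 5.6, 2.83, 3.44 and 3.66 CPM in HCT116 controls and 18.9, 13.7, 17.1 and 16.1 with 2-MiCit. Its DLD1 level was 18.2, 14.3, 12.8 and 14 CPM in controls and 14.2, 11.5, 16.3 and 17 with 2-MiCit. With 2-MiCit HCT116 reached the level that DLD1 had in both conditions. The rise was 4.27-fold in HCT116 and the DLD1 change was -0.01 log2 units, a difference of 2.10 log2 units (SE 0.26, adjusted p = 0.00038). ACTA2, smooth muscle actin, differed by 1.45 and TPM1, a tropomyosin, by 0.55 log2 units (adjusted p = 0.0014 and 0.00038). ANKRD1, a cardiac and YAP-responsive gene, rose in both lines, from a mean of 0.402 to 2.13 CPM in HCT116 and from 31.4 to 54.1 in DLD1 (difference 1.61, adjusted p = 0.0013). Of 8 fibroblast markers 3 were in the table, and they summed to 14.6 to 22.2 CPM in HCT116 controls and 16.3 to 22.2 in treated HCT116 libraries. COL1A1 averaged 17.4 and 18.5 CPM in these groups, PDGFRB 0.121 and 0.31 and COL3A1 0.0315 and 0.0129, and the last 2 stayed under 1 CPM in every library. Their part in the result was not tested.

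Keratins rose in HCT116. Of 10 genes of keratins and epithelial stress, 6 rose in HCT116 with a median of 0.53 log2 units, where 14.3% of all genes tested rose. In DLD1 edgeR called 0 of the 10, with 2 at an unadjusted p below 0.05, while DESeq2 called 2 and voom 3. The keratins KRT7, KRT80, KRT18 and KRT8 differed by 1.38, 1.15, 0.59 and 0.53 log2 units (adjusted p = 0.00072, 0.0023, 0.02 and 0.02). KRT8 was at 2430, 2431, 2435 and 2250 CPM in HCT116 controls and 3348, 3337, 3741 and 3173 with 2-MiCit. DLD1 control 1 held 7399 CPM of KRT8 against 5664 to 5995 in the other DLD1 controls and 5655 to 6695 in treated DLD1 libraries. KRT8 and KRT18 lost the call without HCT116 control 4 (adjusted p = 0.0524 and 0.0503), and KRT8 also without DLD1 2-MiCit 2 (0.0525). Without DLD1 control 1 the KRT8 difference was 0.41 log2 units (adjusted p = 0.0094), and the median of the list in DLD1 changed from -0.03 to 0.08. Summed epithelial markers, which include both KRT8 and KRT18, ran from 6530 to 7450 CPM in treated HCT116 libraries.

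Targets of NRF2, ABC pumps and interferon-stimulated genes also held genes larger in HCT116. Of 22 NRF2 targets, 8 rose and 1 fell in HCT116 and 1 rose in DLD1 (3 without DLD1 control 1), and of 16 ABC export pumps 5 rose in HCT116. Of all genes tested 14.3% rose and 10.2% fell in HCT116 and 2.51% rose in DLD1. ABCC3, an export pump on both lists, was at 13.6, 9.65, 11.6 and 9.48 CPM in HCT116 controls and 48.6, 37.9, 40.1 and 46.8 with 2-MiCit. The DLD1 libraries were at 10.9, 8.46, 10.3 and 8.26 CPM in controls and 16.2, 12.9, 11.1 and 14 with 2-MiCit. The DLD1 libraries did not overlap either, although their change of 1.43-fold was not called (adjusted p = 0.056), and the rise was 3.92-fold in HCT116 (difference 1.45, SE 0.20, adjusted p = 0.0008). NQO1, a quinone reductase, differed by 0.66 log2 units (adjusted p = 0.0029). ABCA3, a lipid pump, differed by 1.14 (adjusted p = 0.034, a call lost in 14 of the 16 fits that left out 1 library). Of 27 interferon-stimulated genes, 9 rose in HCT116, and edgeR called 0 in DLD1, where 4 were lower at an unadjusted p below 0.05 and DESeq2 and voom each called 1. IFIH1, a sensor of double-stranded RNA, and PARP9, a partner of interferon signalling, differed by 0.78 and 0.72 log2 units (adjusted p = 0.011 and 0.013).

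By size of the interaction, the named increases in HCT116 included 10 genes with differences between 1.62 and 2.52 log2 units: ANKRD2, TNNC1, TAGLN, ZBED2, KLRC2, PIP5KL1, PAQR8, DCLK1, TGM2 and CCDC9B. Of these TGM2, a transglutaminase, was at 36.6, 33.7, 38.1 and 35.3 CPM in HCT116 controls and 78.9, 90.7, 95.5 and 87.2 with 2-MiCit. It stayed below 1 CPM in all 8 DLD1 libraries, where a change would be hard to detect at this depth. ZBED2, PAQR8 and PIP5KL1 also averaged under 1 CPM in both DLD1 groups, at 0.302 and 0.163, 0.416 and 0.414, and 0.939 and 0.695. KLRC2, CCDC9B and DCLK1 averaged 0.755 to 1.17 CPM there and ANKRD2 2.04 and 1.2. The rule asked for a mean of 5 CPM in one HCT116 group and set no level in DLD1, so for 8 of the 10 the size of the difference rests on DLD1 levels of a few CPM or less. Among all 550 higher genes of the class 19 were under 1 CPM in both DLD1 groups. TNNC1, a troponin, showed the reverse of levels, with 1.52 to 1.94 CPM in HCT116 controls and 4.82 to 6.09 with 2-MiCit, and 346, 168, 145 and 160 CPM in DLD1 controls against 128 to 162 with 2-MiCit. Its difference was 2.15 log2 units with DLD1 control 1, the library at 346 CPM, and 1.76 without it (adjusted p = 0.0034 and 2.7e-05). Of these 10, KLRC2 lost the call in 6 of the 16 fits without 1 library, ZBED2 without DLD1 control 2 (difference 1.82, adjusted p = 0.0612) and PAQR8 without DLD1 control 3 (1.21, adjusted p = 0.162).

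Genes of mitosis fell more in HCT116. Of 34 tested, 11 fell in HCT116 and 1 in DLD1, and all 8 with a called interaction were lower in HCT116. Over all genes tested 10.2% fell in HCT116, 1.56% fell in DLD1 and 6.24% had the interaction called. Of those 929 called genes 808 were larger in HCT116, 258 of them lower. Medians were -0.22 and 0.05 log2 units. PLK1, a mitotic kinase, stood at 221, 233, 231 and 223 CPM in HCT116 controls and 157, 163, 169 and 153 with 2-MiCit. In DLD1 it was at 129, 147, 156 and 160 CPM in controls and 164, 152, 162 and 158 with 2-MiCit. HCT116 groups were apart and DLD1 groups overlapped, with DLD1 control 1 the lowest, and treated HCT116 libraries reached the level of DLD1. The difference was -0.61 log2 units (SE 0.09, adjusted p = 0.0011; -0.57 without DLD1 control 1). CDC20, the activator of the anaphase-promoting complex, fell by 0.67 log2 units in HCT116 and by 0.21 in DLD1 (difference -0.46, adjusted p = 0.002), and KIF2C, a kinesin, and AURKA, a mitotic kinase, differed by -0.44 and -0.36.

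Ribosome biogenesis factors and splicing factors followed the same direction. Over all genes tested 10.2% fell in HCT116, 1.56% fell in DLD1 and 6.24% had the interaction called. Of 33 ribosome biogenesis genes, 19 fell in HCT116 and 2 in DLD1, with medians of -0.38 and -0.11 log2 units. The interaction was called at 9 of them, all lower in HCT116 (17 had it called without DLD1 control 1). At an unadjusted p below 0.05, 16 were lower in DLD1, where DESeq2 called 12 lower and voom 5. NCL, the nucleolar protein nucleolin, went from 2058, 2160, 2164 and 2259 CPM to 1293, 1362, 1449 and 1423 in HCT116. Its DLD1 level was 2311, 2475, 2581 and 2822 CPM in controls and 2131, 2299, 2195 and 2246 with 2-MiCit. The DLD1 groups were separated by a small gap and the HCT116 groups by a large one. NCL fell by 0.64 log2 units in HCT116, its DLD1 change of -0.20 was not called (adjusted p = 0.083), and the difference was -0.44 (adjusted p = 0.011). Of 22 splicing kinases and SR proteins, 14 fell in HCT116, and 2 fell and 1 rose in DLD1 (1 fell and 0 rose without DLD1 control 1). The interaction was called at 7, all lower in HCT116. SRSF1, a splicing activator, was at 583, 599, 550 and 608 CPM in HCT116 controls and 364, 349, 345 and 359 with 2-MiCit. The DLD1 libraries were at 513, 539, 522 and 536 CPM in controls and 434, 495, 467 and 478 with 2-MiCit. Treated libraries were below controls in both lines. SRSF1 fell 1.65-fold in HCT116, its DLD1 change of -0.17 log2 units was not called (adjusted p = 0.072), and the difference was -0.55 (adjusted p = 0.00062). CLK3, a kinase that phosphorylates SR proteins, differed by -0.74 (adjusted p = 0.0008). PUF60, a splicing factor, had the greatest difference between the lines among the named lower genes of the class and differed by -1.30 log2 units (adjusted p = 0.0023): it fell 1.85-fold in HCT116, and in DLD1 its treated libraries, at 106 to 146 CPM, lay above its controls, at 76.7 to 103, without a call (adjusted p = 0.11). The class also named PWP2, ZBTB2, MFSD2A, HK2, WDR24, RAD54L and AP002990.1, with differences from -0.68 to -1.16 log2 units. Of these AP002990.1 and HK2 lost the call in 12 and 5 of the 16 fits without 1 library.

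Cholesterol genes fell more often than they rose in HCT116. Of 28 genes of cholesterol synthesis and uptake, 10 fell and 3 rose in HCT116, where 10.2% of all genes tested fell and 14.3% rose. The medians were -0.25 log2 units there and 0.02 in DLD1 (-0.01 in DLD1 without control 1). The interaction was called at 7 (12 without DLD1 control 1), with 3 higher and 3 lower genes larger in HCT116 and 1 higher gene larger in DLD1. DHCR7, the last enzyme of cholesterol synthesis, fell by 0.58 log2 units in HCT116 and changed by 0.06 in DLD1 (difference -0.64, adjusted p = 0.0068). TM7SF2 and GGPS1, enzymes of sterol and isoprenoid synthesis, rose in HCT116 and differed by 0.94 and 0.54 log2 units.

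**Figure D3:**
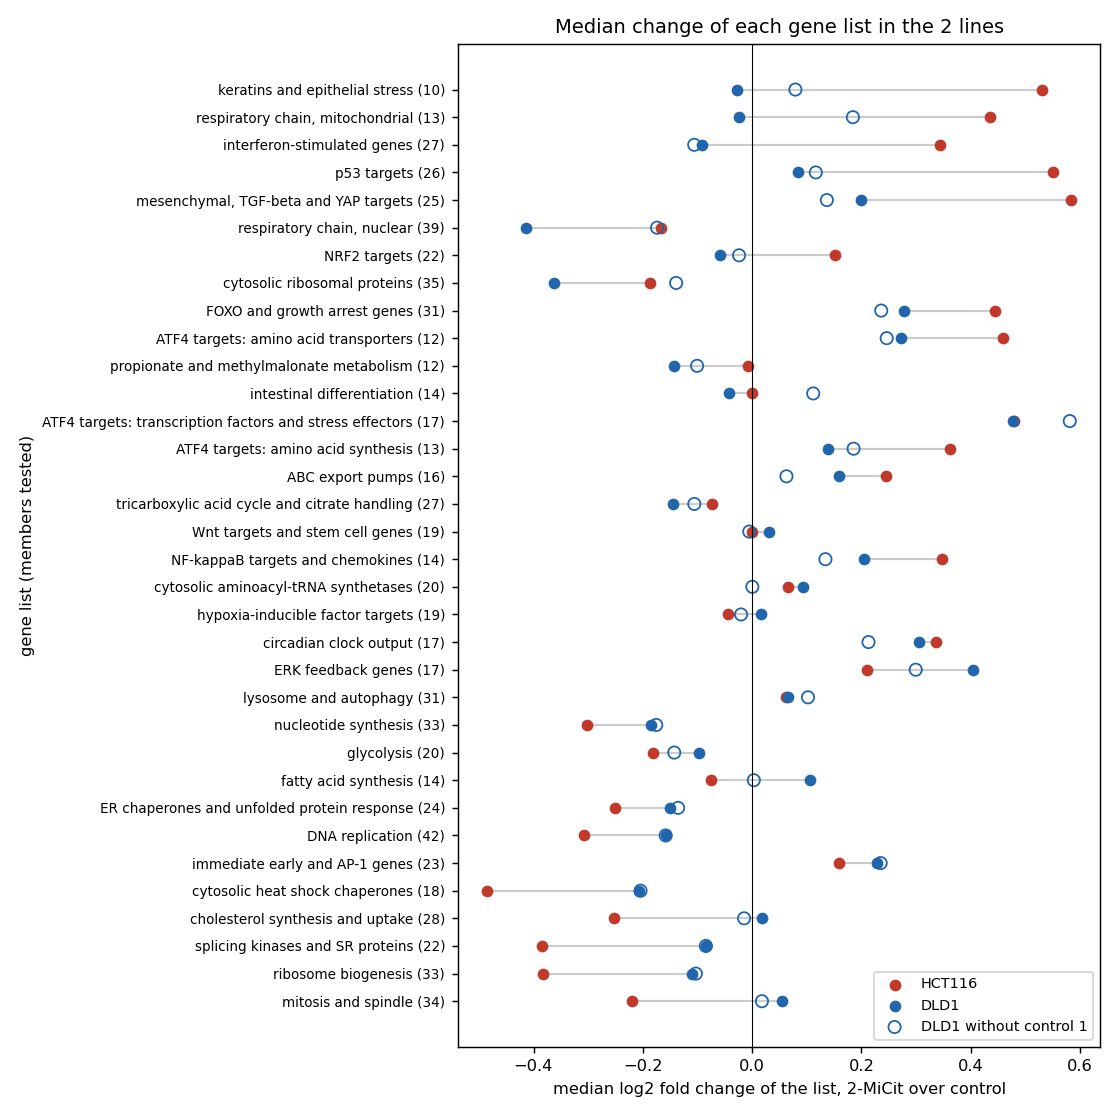
Each row is 1 of 34 gene lists with its number of tested genes, ordered by the median difference between the lines; points give the median log2 fold change in HCT116 (red), in DLD1 (blue) and in DLD1 without control 1 (open). Medians for keratins, p53 targets and mesenchymal genes were above 0.5 in HCT116 and at most 0.2 in DLD1, and open and filled DLD1 points are far apart for the ribosomal proteins and the nuclear respiratory chain.

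Genes with a larger response in DLD1 were fewer and included stress-induced, immediate early and clock genes. NR1D1, a nuclear receptor of the circadian clock, was at 33.1, 35, 34.7 and 29.5 CPM in HCT116 controls and 44.9, 42.1, 39.6 and 39.5 with 2-MiCit. In DLD1 it went from 12.4, 13.2, 16.7 and 14.5 CPM to 37.4, 29.7, 31.7 and 28.2. Treated libraries were above controls in both lines, and treated DLD1 came near to the level of HCT116 controls. The rise was 1.25-fold and 2.23-fold, a difference of -0.83 log2 units (SE 0.15, adjusted p = 0.0035). Of the 17 circadian output genes tested 10 rose in HCT116 and 6 in DLD1, 4 of them shared, and the one other called difference, at DBP, a clock-driven transcription factor, was in favour of HCT116 (1.18, adjusted p = 0.013; 0.94 without DLD1 control 1). Without that library 4 of the 17 had the interaction called, 5 rose in DLD1 and 3 were shared. With all 16 libraries, 14.3% of all genes tested rose in HCT116 and 2.51% in DLD1.

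CYR61, a secreted matrix protein induced by serum and YAP, stood at 60.8, 60.8, 60.9 and 60.1 CPM in HCT116 controls and 77.7, 75.6, 76.7 and 65.3 with 2-MiCit. In DLD1 it was at 161, 141, 134 and 146 CPM in controls and 321, 284, 283 and 245 with 2-MiCit. Every treated library was above the controls of its line, by 1.22-fold and 1.95-fold (difference -0.68, SE 0.11, adjusted p = 0.0026). Of 23 immediate early and AP-1 genes, 6 rose in HCT116 and 7 in DLD1, with 5 shared and 2 called differences, at CYR61 and at BTG2 (5 without DLD1 control 1). The shares of all genes tested were 14.3% and 2.51% higher, 2.24% shared and 6.24% with a called difference. DUSP5, a nuclear phosphatase that acts on ERK, went from 76.1, 72.7, 66.3 and 55.3 CPM to 147, 133, 163 and 115 in DLD1. In HCT116 it was at 184, 182, 156 and 145 CPM in controls and 231, 209, 202 and 180 with 2-MiCit. The HCT116 groups overlapped and the DLD1 groups were apart (difference -0.75, adjusted p = 0.017). Of 17 ERK feedback genes, 5 rose and 1 fell in HCT116 and 7 rose in DLD1, with 4 shared. The difference was called at 1 of them, and at 2 without DLD1 control 1.

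Others in the class that rose in DLD1 were ABHD12B, NOCT, LETM2, TIMP3 and IFRD1. NOCT encodes a clock-regulated phosphatase and TIMP3 an inhibitor of matrix proteases, and their DLD1 increases were 0.61 and 0.47 log2 units. ABHD12B, a hydrolase, rose 1.59-fold in DLD1 and its HCT116 change of -0.25 log2 units was not called (difference -0.92, adjusted p = 0.0052). TIMP3 lost the interaction call in 5 of the 16 fits without 1 library, those without HCT116 2-MiCit 1, 2 or 3 or HCT116 control 2 or 3 (adjusted p from 0.0524 to 0.138). Decreases in DLD1 were smaller. METTL7B, a methyltransferase of lipid droplets and endoplasmic reticulum, went from 9.01, 8.81, 8.27 and 9.28 CPM to 5.43, 5.96, 6.5 and 6.15 in DLD1. In HCT116 its controls were at 8.53 to 9.19 CPM and its treated libraries at 9.0 to 10.2. The DLD1 groups were apart and the HCT116 groups overlapped (difference 0.64, adjusted p = 0.004). The other named decreases (EPHX2, DYNC2LI1, GSTO2, FAM104B, PARD6G, KDELR3, ARL6IP5, ALG6 and SMPD1) had DLD1 changes between -0.32 and -0.64 log2 units and differences between 0.52 and 0.81, and the calls of SMPD1 (lysosomal sphingomyelinase), ALG6 and ARL6IP5 were lost in 8, 7 and 7 of the 16 fits without 1 library.

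Genes called in opposite directions in the lines, with the interaction called, numbered 14, and 9 of them were higher in HCT116. PWP2, a ribosome biogenesis factor, fell in HCT116 from 98.2, 108, 103 and 96.5 CPM to 64.4, 67.3, 77.9 and 62.2. In DLD1, where it was scarce, it rose from 2.73, 2.52, 3.78 and 3.14 CPM to 4.54, 4.63, 4.65 and 4.19. Groups were apart in both lines (difference -1.14, SE 0.15, adjusted p = 0.00054). EPN3, an adaptor of endocytosis, was at 11.5, 10.7, 10.7 and 9.92 CPM in HCT116 controls and 15.2, 17.3, 15 and 16.4 with 2-MiCit. Its DLD1 level was 17.7, 18.7, 20.3 and 19.3 CPM in controls and 16.2, 15.5, 15.1 and 14.3 with 2-MiCit. The lines moved toward a common level (difference 0.89, SE 0.11, adjusted p = 0.00025). MAFK, a small Maf transcription factor, fell from 64.4 to 70.9 CPM in HCT116 controls to 53.6 to 57.1 with 2-MiCit, and rose from 47.3 to 52.1 CPM to 57.8 to 64.9 in DLD1 (difference -0.62, adjusted p = 0.00047). EPHX2, soluble epoxide hydrolase, rose 1.31-fold in HCT116 and fell 1.34-fold in DLD1. The same test named PARD6G, PQLC3, IFRD1 and RSRC2, and each of these 8 kept its interaction call without DLD1 control 1. PWP2 and PQLC3 were not called in DLD1 without that library (adjusted p = 0.0563 and 0.0695). In fits that left out 1 library the number of opposite genes ran from 5 to 30. A fit that treated same-numbered libraries of a line as pairs (the replicate block) gave 0.

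Some apparent differences followed DLD1 control 1. Of 39 nuclear genes of the respiratory chain, 3 fell in HCT116 and 1 in DLD1, and their median change was -0.17 in HCT116 and -0.41 in DLD1, a median difference of 0.23 log2 units. At an unadjusted p below 0.05, 5 were lower in HCT116 and 32 in DLD1, while DESeq2 called 4 and 14 lower and voom 14 and 4. Without that library the DLD1 median was -0.17 and the median difference -0.04. Among 35 cytosolic ribosomal proteins edgeR called 0 in either line or for the difference. At an unadjusted p below 0.05, 3 were lower in HCT116 and 32 in DLD1, while DESeq2 called 1 and 3 of these lower and voom 14 and 1. The median difference of 0.17 log2 units became -0.05 without DLD1 control 1. Of the 929 genes, 32 lost the call without it. The named ones with the greatest shift were MROH6 (1.40 to 1.2 log2 units), GTF2IRD2 (1.01 to 0.81), NOXA1 (1.24 to 1.04), SMARCD3 (0.70 to 0.53), IDUA (1.01 to 0.84) and KAZALD1 (0.83 to 0.68), and the call of each was lost in 9 to 14 of the 16 fits without 1 library, the fit without DLD1 control 1 included.

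**Figure D4:**
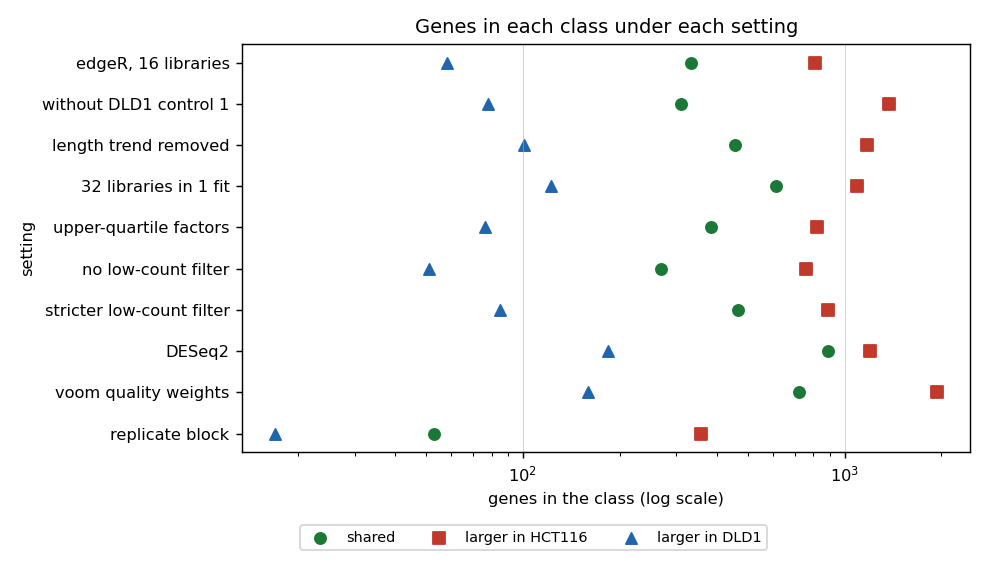
Points give the number of genes in each class (shared, larger in HCT116, larger in DLD1) on a log axis under 10 settings of the fit. The class larger in HCT116 held between 359 and 1942 genes and that larger in DLD1 between 17 and 184, and the former was the greater under each setting shown, while shared genes ran from 53 to 890.

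Libraries of LoVo and SW948, measured in the same table and not used to form the classes, gave the size of each class in other lines. In a fit of the 32 libraries LoVo had 120 genes called higher (0.759% of 15800) and 82 lower (0.519%). It called higher 17 of the 206 shared higher genes (8.25%), 30 of the 550 higher genes larger in HCT116 (5.45%) and 2 of the 38 higher genes larger in DLD1 (5.26%). It called lower 16 of the 128 shared lower genes (12.5%) and 17 of the 258 lower genes larger in HCT116 (6.59%). Median changes in LoVo were 0.14 and -0.19 log2 units for the shared higher and lower genes, 0.11 and -0.10 for those larger in HCT116, and 0.04 and -0.06 for those larger in DLD1. SW948 had few calls: of 14875 of the genes tested 2 were called higher and 0 lower, and 0 genes of any class were called. Its medians are therefore not read as a reversed response. The corresponding SW948 medians were -0.05 and 0.07 for the shared higher and lower genes, on the other side of 0 from the class. They were 0.03 and -0.01 for those larger in HCT116. For those larger in DLD1 they were -0.01 and 0.05, again on the other side of 0.

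**Figure D5:**
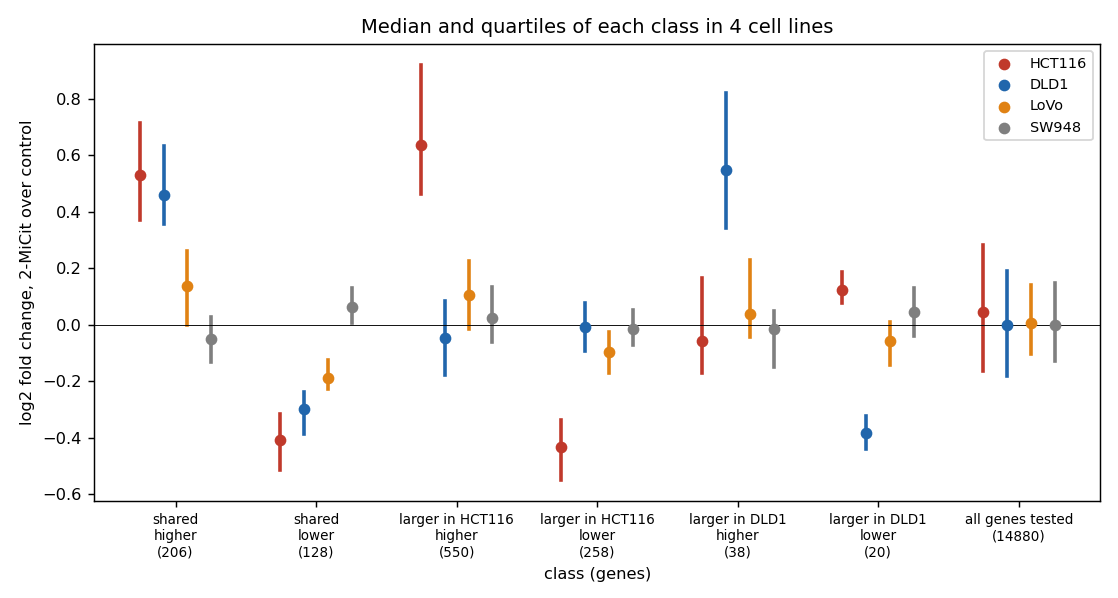
Points are medians and lines quartiles of the log2 fold change over the genes of each class in HCT116, DLD1, LoVo and SW948, where HCT116 and DLD1 values formed the classes. LoVo medians lie on the same side of 0 as the class in each of the 6 sets, at 0.14 for shared higher and -0.19 for shared lower genes. SW948 medians lie near 0, on the other side from the class for the shared genes and for those larger in DLD1. In SW948 2 of 14875 genes were called higher and 0 lower.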

How the data were processed

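RNA from established HCT116 and DLD1 cells was sequenced from stranded mRNA libraries, per the labels' protocols. The values used are gene-level counts as deposited by the authors, whole numbers that were not normalized. The submitters' processing notes name bcl2fastq 2.20.0, Trimmomatic 0.39, Salmon 1.5.0, DESeq2 and GRCh38.p13, without giving their order. Identifiers were matched to GENCODE 29 (15329 of 16485, and 53 more by a newer name table); unmatched identifiers held 3.19 to 3.54% of counts. How reads shared by near-identical genes were assigned was not stated.

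Genes were filtered by edgeR's filterByExpr, scaled by TMM and fitted with edgeR 4.0.16 (robust quasi-likelihood F test, two-sided, R 4.3.3) in a group-means model of 16 libraries, with Benjamini-Hochberg adjustment over 14880 genes. CPM values use TMM-scaled totals except for markers. The model was also run on simulated counts, and the outcome of that run is not given here. Alternatives were DESeq2 1.42.0, limma 3.58.1 (voom with quality weights), upper-quartile scaling, other filters, removal of each library's length trend, 32 libraries in 1 fit, a replicate block and leaving out each library.

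Named genes were, per class and direction, the 10 largest at 5 CPM or more whose groups did not overlap and whose call held without DLD1 control 1; up to 8 opposite genes; up to 4 genes per list by interaction p; and 6 genes whose call was lost without that library. Some genes that met the rule are not reported here and were not replaced. The members and lists were chosen with earlier results of these data known. Promoter windows are from RefSeq (GRCh38.p14).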

Additional observations from a re-analysis of the deposited data

Results flagged for a closer look

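The response to 2-MiCit differed between HCT116 and DLD1 by a test of the difference itself at 929 genes. The lines were called in opposite directions at 14 of them, and at the 8 of these that were named the difference (HCT116 minus DLD1, log2 scale) was 0.89 at EPN3, -0.62 at MAFK, 0.81 at EPHX2, -1.14 at PWP2, 0.61 at PARD6G, 0.99 at PQLC3, -0.64 at IFRD1 and -0.55 at RSRC2.

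Over 67 named genes and 3 measures of the libraries, 15 of 280 groups of 4 libraries (5.36%) held 1 library far from the other 3 relative to the range of its group, where chance gives about 1 in 20. The gap can be small in size, as for CYR61 in HCT116 controls (60.1 CPM against 60.8 to 60.9). DLD1 control 1 was that library 5 times: it was high for GDF15 (477 CPM), TNNC1 (346), GSTO2 (42.1) and CUTC (16.8), and low for KDM7A (12.9). In the other DLD1 libraries, 2-MiCit 1 was low for GTF3C6 (53.7 CPM), 2-MiCit 4 was low for TIMP3 (75.1) and control 3 was high for PAQR8 (0.77).

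In HCT116, 2-MiCit 3 was high for CUTC (47.9 CPM) and low for POLR3G (70.0), and control 3 was low for POLR3G too (90.2). The library 2-MiCit 4 was low for ARL6IP5 (50.4 CPM) and CYR61 (65.3), control 4 was low for CYR61 (60.1) and control 1 for PARD6G (26.6).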

How the results depend on the processing

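Of 122 named genes with a called interaction, 67 kept the call under every alternative run, 84 under every one but the replicate block, and 0 changed sign. Class and opposite genes were named only if a call held without the DLD1 control that stood apart. Genes from lists were taken by interaction p, and 6 genes were named because their call was lost without that control. The named genes were thus chosen partly for firm calls, and their rate does not describe all genes with a called interaction. The numbers of genes called moved between settings, and the cause was not tested.

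The main counts were 929 genes for the interaction, 3647 for HCT116, 606 for DLD1, 334 shared, 808 larger in HCT116, 58 larger in DLD1 and 14 opposite. DESeq2 gave 1482 for the interaction, 1960 for DLD1, 890 shared, 184 larger in DLD1 and 59 opposite. Voom gave 2247, 6247, 1192, 724, 1942, 159 and 53 in the order of the main counts. With 32 libraries in 1 fit DLD1 had 1350, with 614 shared, 122 larger in DLD1 and 42 opposite. Opposite genes numbered 25 with upper-quartile scaling, 28 with a stricter filter and 25 with the length trend removed, which also gave 101 larger in DLD1. DLD1 alone had 20 and separate fits shared 19. Chosen after seeing the data, voom without DLD1 control 1 gave 2229, 6352, 1033, 649, 1950, 133 and 46, and length removal without it 2036 for the interaction, 1786 larger in HCT116, 118 larger in DLD1 and 24 opposite.

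Without 1 library the interaction ran from 601 to 1544, HCT116 from 2807 to 5042, DLD1 from 132 to 1396, shared from 83 to 611, larger in HCT116 from 531 to 1375, larger in DLD1 from 31 to 113 and opposite from 5 to 30. A count moved by over 1.5 times without any 1 of DLD1 control 1, 2, 3 or 4, DLD1 2-MiCit 1, 2 or 4, HCT116 2-MiCit 1 or 2, or HCT116 control 2 or 3.

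With the replicate block the interaction was called at 393 genes and DLD1 at 77, with 53 shared, 359 larger in HCT116, 17 larger in DLD1 and 0 opposite. Same-numbered libraries deviated together weakly in HCT116 (r from 0.0682 to 0.265) and not in DLD1 (-0.292 to 0.0232). The lowest DLD1 value paired control 1, which stood apart, with 2-MiCit 1. Their slopes per doubling of transcript length were -0.19 and 0.0948, so the DLD1 values cannot decide whether the numbers pair libraries. The main fit did not pair them, and whether it should have is not settled by these values. Each HCT116 control correlated best with the treated library of its own number. The treated HCT116 libraries also matched best by number, except 2-MiCit 2. It correlated better with control 4 (0.102) than with control 2 (0.0689), so not every library pointed to its own number.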

Other observations

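Further gene lists are given by counts and medians of the log2 change. Over all genes tested 14.3% rose and 10.2% fell in HCT116, and 2.51% rose and 1.56% fell in DLD1. A count near these shares, as for fatty acid synthesis and intestinal differentiation in HCT116, does not set a list apart. Of 20 glycolysis genes, 11 fell and 2 rose in HCT116, and 1 rose and 1 fell in DLD1. At an unadjusted p below 0.05, 12 of them were lower in HCT116 and 8 in DLD1. DESeq2 called 12 and 8 lower and voom 13 and 6. SLC2A3, a glucose transporter, rose by 0.99 in HCT116 and changed by 0.13 in DLD1 (difference 0.86, edgeR adjusted p = 0.00022). Of 27 genes of the tricarboxylic acid cycle and citrate handling, 5 rose and 7 fell in HCT116 and 1 fell in DLD1, with the interaction called at 3 (7 without DLD1 control 1). IDH2, mitochondrial isocitrate dehydrogenase, rose by 0.52 in HCT116 and changed by -0.21 in DLD1 (difference 0.73, edgeR adjusted p = 0.011). Of 12 genes of propionate and methylmalonate metabolism, 3 rose and 1 fell in HCT116, with medians of -0.01 in HCT116 and -0.14 in DLD1. Of 33 nucleotide synthesis genes, 19 fell and 2 rose in HCT116 and 3 fell in DLD1, and CTPS1, CTP synthase, differed by -0.41 (edgeR adjusted p = 0.0029). Without DLD1 control 1, 6 of the 33 fell in DLD1, and with all 16 libraries DESeq2 called 20 lower in HCT116 and 17 in DLD1.

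Of 20 cytosolic aminoacyl-tRNA synthetases, 7 rose and 5 fell in HCT116, and 4 rose and 1 fell in DLD1, with 5 shared. In DLD1 1 rose and 2 were shared without control 1, and the DLD1 median changed from 0.09 to 0.00. Of 13 mitochondrially encoded respiratory chain genes, 3 rose in HCT116, with medians of 0.43 in HCT116 and -0.02 in DLD1. Without DLD1 control 1 the DLD1 median was 0.18 and the median difference went from 0.44 to 0.23. Of 19 targets of hypoxia-inducible factor, 6 rose and 3 fell in HCT116 and 2 rose in DLD1, with the interaction called at 4 (7 without DLD1 control 1). Of 14 NF-kappaB targets, 4 rose in HCT116 and 3 in DLD1, and BIRC3, an inhibitor of apoptosis, rose by 1.39 and 0.57 (difference 0.82, edgeR adjusted p = 0.015). Of 31 lysosome and autophagy genes, 7 rose and 5 fell in HCT116, and 5 rose and 1 fell in DLD1 (3 and 2 without DLD1 control 1), with the interaction called at 2 (6 without it). Of 14 fatty acid synthesis genes 2 rose in HCT116, of 14 intestinal differentiation genes 2 rose and 2 fell there, and of 19 Wnt and stem cell genes 1 rose and 1 fell in each line.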
